A study of Mus musculus with 6 samples.

Results

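Carriers of amino acids and of related small molecules were followed in the livers of mice homozygous for a mutant Jag1 allele. The rule for the genes uses their names and read totals, and takes in all entries of the solute carrier families Slc1, Slc3, Slc6, Slc7 and Slc38 in the deposited table except Slc1a2 and Slc7a11. Of 24489 gene entries 54 carried such a name, and the 41 with at least 10 reads over the 6 libraries are described here. Among these, 40 encode carriers or their partner subunits. Slc7a6os, caught by its name, is the neighbour of Slc7a6 and encodes no transporter.

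Livers came from pups at postnatal day 10 on a C3H/C57bl6J background, without treatment, and one lobe per liver gave polyadenylated RNA for sequencing. Of the 6 libraries, 3 were labelled Jag1+/+ (wild type) and 3 Jag1Ndr/Ndr (homozygous for the Nodder allele). Jag1 encodes a ligand of Notch receptors, and the Nodder strain models Alagille syndrome, in which bile ducts are too few. The comparison asked which liver transcripts differ between the genotypes. The labels do not state that the libraries of a genotype are separate animals, and where libraries share an animal, p-values measure technical spread in part. Depth ran from 12992592 to 59653111 reads per library, and 3 reads, the limit that a count of 0 allows, stand for 0.0503 to 0.231 CPM (reads scaled to library size), for counting error only. Jag1Ndr/Ndr replicates 1 and 2 lay farthest apart on the second principal component, at 46.7 and -43.6. Reads of Xist and of Y-linked genes marked Jag1+/+ replicate 1 and Jag1Ndr/Ndr replicates 2 and 3 as female and the others as male. Each genotype thus held both sexes, and its libraries do not all come from the same animal. Hepatocyte markers were all present. Of 11 markers of pancreas, intestine, kidney, brain and muscle 4 could be tested, and Prss1 of pancreas and Snap25 of neurons had 0 reads. The 4 summed to 91.3 to 109 RPKM in Jag1+/+ and 25.8 to 76.2 RPKM in Jag1Ndr/Ndr libraries, most of it the intestinal Fabp2 (mean 92.6 and 38.8 RPKM, edgeR adjusted p = 0.113), while the epithelial Vil1 rose (0.105 to 2.10 RPKM, edgeR adjusted p = 0.0298).

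Amino acids cannot cross membranes unaided, and the liver, which turns them into plasma proteins, glucose and urea, takes them up through carriers of these families. Slc38 members move glutamine, alanine and other neutral amino acids with sodium. Slc7 members carry cationic amino acids alone, or large neutral ones as light chains bound to a heavy chain of the Slc3 family. Slc1 members carry glutamate or small neutral amino acids, and Slc6 members move glycine, creatine, taurine, betaine and GABA together with sodium and chloride.

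In Jag1Ndr/Ndr livers the glycine carrier Slc6a9 was 3.58-fold, the creatine carrier Slc6a8 2.39-fold and the light chain Slc7a5 2.15-fold higher than in Jag1+/+ livers, while the GABA carrier Slc6a11 was 6.27-fold lower. The carriers with the most transcript, Slc38a3 and Slc38a4, did not pass the test in either direction. Of the 41 members 31 had enough reads to be tested, and 4 of them passed, 3 higher and 1 lower (edgeR's quasi-likelihood test, p adjusted by Benjamini-Hochberg over 13819 genes, threshold 0.05). The members' 12.9% stands beside 7.63% of all genes tested, and by direction beside 4.73% higher and 2.90% lower. Of the calls over all genes 62.0% were higher, and 74.3% with library totals alone, a scaling that moves the median of all genes by 0.13 on the log2 scale. The members' median log2 fold change was 0.14 against 0.00 over all genes. The genotypes did not overlap in 11 of 31 members, that is 35.5%, and in 29.0% of all genes. Without Jag1+/+ replicates 1, 2 and 3 the members higher numbered 1, 1 and 2 and those lower 0, 0 and 1. Fold changes are Jag1Ndr/Ndr over Jag1+/+, and levels are RPKM, reads per kilobase of transcript scaled to library size, recomputed from the reads with TMM scaling, so that genes can be compared per length.

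**Figure D1:**
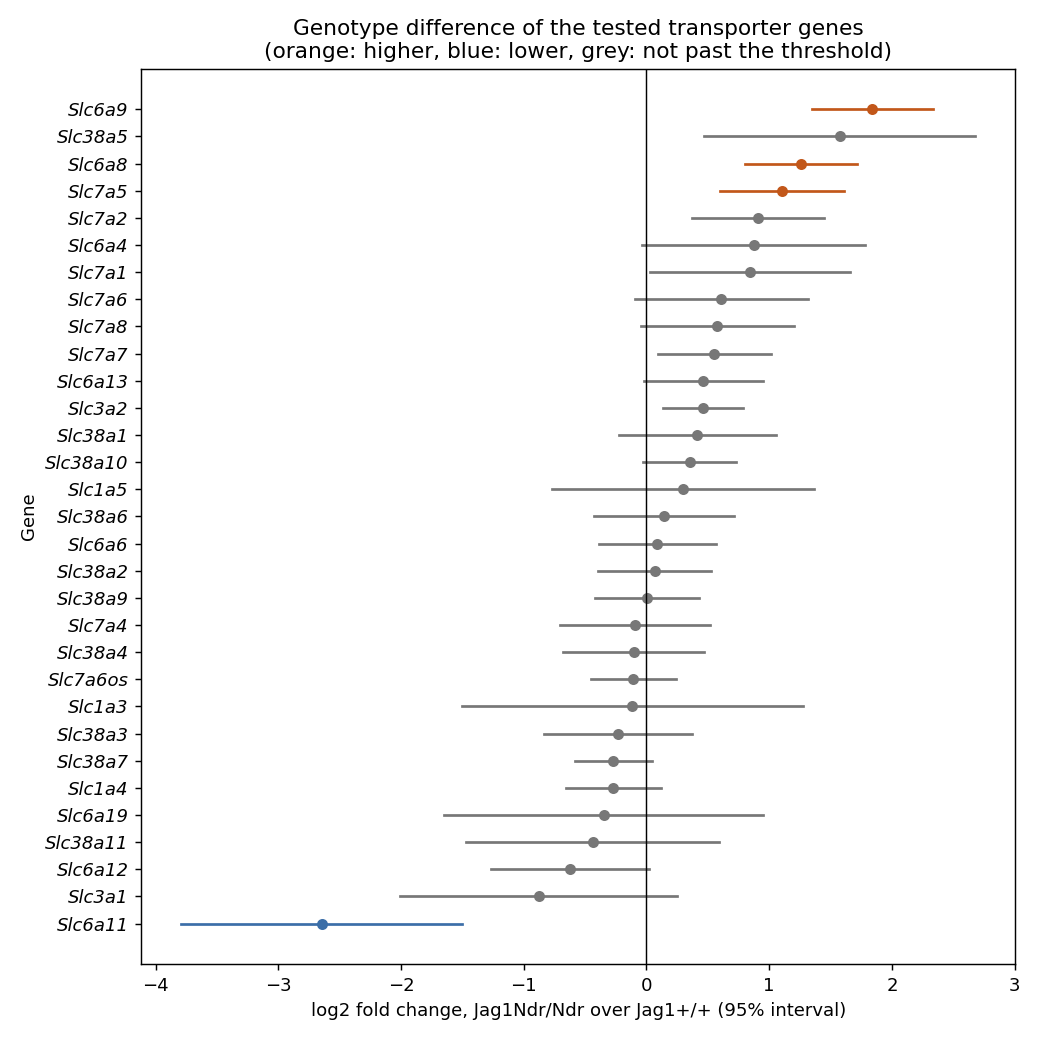
Log2 fold change, Jag1Ndr/Ndr over Jag1+/+, of each of the 31 tested members (point) with its 95% interval (line), ordered by value. Slc6a9, Slc6a8 and Slc7a5 in orange lie above 0, Slc6a11 in blue lies at -2.65, and the 27 members in grey did not pass.

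The Slc6 family held 3 of the 4 calls among its 8 tested members. Slc6a9 (GlyT1; chromosome 4, positions 117835258 to 117869305 of GRCm38) takes up glycine, which erythroid cells use to build heme. Its level was 2.58, 2.36 and 1.82 RPKM in Jag1+/+ replicates 1, 2 and 3 and 9.82, 6.70 and 7.67 RPKM in Jag1Ndr/Ndr replicates 1, 2 and 3. All 3 mutant libraries lay above all 3 wild-type libraries, by more than the spread within either genotype. The rise had a log2 fold change of 1.84 ± 0.21 (SE) with an edgeR adjusted p of 0.00365, and it passed in all 15 alternative analyses. Exons of Slc6a9 overlap those of 3 genes on the opposite strand: Ccdc24 over 1429 of 5141 bases, Gm17114 over 511 and B4galt2 over 46. The library kit does not mark strand, and Gm17114 had no read values to compare. Ccdc24 had 41 reads in all, and B4galt2 stood at 0.35 ± 0.30 on the log2 scale (edgeR, adjusted p = 0.568).

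Slc6a8 (chromosome X, positions 73673133 to 73682502) brings creatine into cells. Its level was 2.03, 2.23 and 2.42 RPKM in the Jag1+/+ libraries and 5.62, 4.16 and 6.32 RPKM in the Jag1Ndr/Ndr libraries. The genotypes did not overlap, and the lowest mutant library still lay well above the highest control. The log2 fold change was 1.26 ± 0.20 with an edgeR adjusted p of 0.0102. This call was lost without Jag1+/+ replicates 1 and 2 (adjusted p = 0.0550 and 0.0558) and in the deposited RPKM with pseudocounts of 1 and 0.1 (0.0897 and 0.0703).

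Slc6a11 (chromosome 6, positions 114131241 to 114249886) is a GABA carrier known chiefly from astrocytes of the brain, and its level in these livers was low. It stood at 0.892, 0.557 and 0.352 RPKM in the Jag1+/+ libraries and at 0.112, 0.117 and 0.0404 RPKM in the Jag1Ndr/Ndr libraries. In reads this was 61, 68 and 54 against 5, 33 and 3, and the genotypes did not overlap. The fall came to -2.65 ± 0.50 on the log2 scale (edgeR, adjusted p = 0.0184). The neuronal Syt1 stood at a mean of 1.79 and 2.14 RPKM (edgeR, adjusted p = 0.481), and the part of the other-tissue markers in the Slc6a11 value was not tested. Slc6a11 entered the test through its wild-type level, being over the filter in 3 Jag1+/+ libraries and in 1 Jag1Ndr/Ndr library. The call was lost without Jag1+/+ replicates 1 and 2 (adjusted p = 0.0670 and 0.0631) and by limma with a pseudocount of 1 on the authors' RPKM (0.0865).

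Slc6a13 and Slc6a12 are neighbours on chromosome 6, with 4853 bases between the end of the former and the start of the latter, and both are abundant in liver. Slc6a13 (GAT2) takes up GABA and taurine, and Slc6a12 (BGT1) takes up betaine and GABA. Slc6a13 measured 61.3, 67.7 and 92.5 RPKM in Jag1+/+ and 118, 101 and 85.7 RPKM in Jag1Ndr/Ndr livers. Jag1Ndr/Ndr replicate 3 lay below Jag1+/+ replicate 3, so that the genotypes overlapped. Slc6a12 measured 34.4, 37.8 and 48.9 RPKM in Jag1+/+ and 31.8, 15.6 and 31.5 RPKM in Jag1Ndr/Ndr livers, without overlap. Neither passed: Slc6a13 came to 0.46 ± 0.21 and Slc6a12 to -0.62 ± 0.28 on the log2 scale (edgeR, adjusted p = 0.246 and 0.239).

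Within a library, the level of Slc6a12 over that of Slc6a13 was 0.561, 0.559 and 0.528 in Jag1+/+ and 0.269, 0.155 and 0.368 in Jag1Ndr/Ndr replicates 1, 2 and 3. The wild-type ratios were nearly alike, and every mutant ratio was lower (0.549 ± 0.0184 against 0.264 ± 0.107, mean ± SD, n = 3). The exact two-sided permutation test gave p = 0.10, the smallest value that 3 against 3 libraries allow. This ratio and the pairs Slc7a5 over Slc3a2 and Slc7a2 over Slc7a1 below were chosen after the values were seen, and their p adjusted by Benjamini-Hochberg over the 3 ratios, from exact permutation tests, was 0.15, 0.15 and 0.80.

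**Figure D2:**
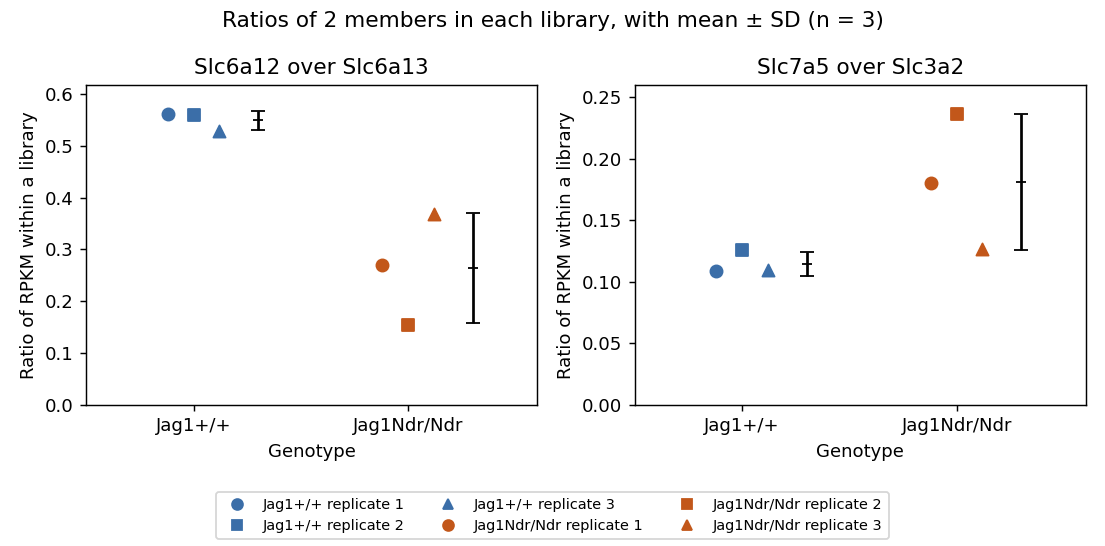
Ratio of the RPKM of 2 genes within each library (points), with mean ± SD beside them, by genotype. The Slc6a12 over Slc6a13 ratio lies at 0.528 or above in all Jag1+/+ libraries and at 0.368 or below in all Jag1Ndr/Ndr libraries; the Slc7a5 over Slc3a2 ratio of Jag1Ndr/Ndr replicate 3, 0.126, lies just above the highest Jag1+/+ library.

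RefSeq start sites are shown for the members with the largest rise and fall and for the neighbouring pair, since the latter lie side by side and yet differ in direction of their fitted change. Of the 41 members 31 were in the RefSeq promoter table of GRCm38.p6, among them 2 of the 4 called. Each stretch runs 5′ to 3′ along the gene from 250 bases before to 50 after a start, here the most upstream start listed, with CG dinucleotides in capitals.
Slc6a9 (chr4:117835008-117835307, plus strand): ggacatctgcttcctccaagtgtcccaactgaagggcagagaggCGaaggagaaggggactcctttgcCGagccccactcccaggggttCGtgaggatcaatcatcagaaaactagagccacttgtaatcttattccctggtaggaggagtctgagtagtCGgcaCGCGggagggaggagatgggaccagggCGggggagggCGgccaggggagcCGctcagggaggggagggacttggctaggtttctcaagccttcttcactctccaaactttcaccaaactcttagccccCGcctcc
Slc6a11 (chr6:114130991-114131290, plus strand): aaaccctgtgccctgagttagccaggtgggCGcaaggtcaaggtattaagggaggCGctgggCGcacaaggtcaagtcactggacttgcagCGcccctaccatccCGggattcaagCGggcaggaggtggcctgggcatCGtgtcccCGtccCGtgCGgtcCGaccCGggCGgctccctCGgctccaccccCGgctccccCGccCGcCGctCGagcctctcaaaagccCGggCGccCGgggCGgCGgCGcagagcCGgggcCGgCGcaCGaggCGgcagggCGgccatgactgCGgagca
Slc6a13 (chr6:121300038-121300337, plus strand): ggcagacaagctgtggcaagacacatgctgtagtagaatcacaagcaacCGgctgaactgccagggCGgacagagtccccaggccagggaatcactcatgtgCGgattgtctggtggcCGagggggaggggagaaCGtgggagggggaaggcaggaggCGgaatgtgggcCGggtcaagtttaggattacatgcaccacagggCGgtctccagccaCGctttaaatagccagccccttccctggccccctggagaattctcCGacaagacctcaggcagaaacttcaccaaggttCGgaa
Slc6a12 (chr6:121342324-121342623, plus strand): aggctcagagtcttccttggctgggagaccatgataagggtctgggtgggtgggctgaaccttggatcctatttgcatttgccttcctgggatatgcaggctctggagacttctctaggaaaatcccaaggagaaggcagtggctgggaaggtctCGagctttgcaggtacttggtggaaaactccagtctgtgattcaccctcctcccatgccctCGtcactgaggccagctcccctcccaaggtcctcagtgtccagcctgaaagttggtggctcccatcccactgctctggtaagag
The Slc6a11 start held 32 CG dinucleotides, a number reached by 9.52% of 32851 promoters, whose median was 7. Slc6a9 held 10 (reached by 43.5%), Slc6a13 11 (41.4%) and Slc6a12 2 (85.9%). Read counts per gene do not tell which of several listed starts was used. None of these 4 stretches contains, on either strand, AGATAA (bound by GATA factors), TGATGNAA (the core of the element bound by ATF4) or CACGTG (an E-box), which occur in 11.2%, 3.97% and 7.15% of all promoters in the table. A missing match says only that these letters are not in the window.

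The other Slc6 members did not pass. Slc6a6, the taurine carrier, measured 16.9, 22.5 and 23.6 RPKM in Jag1+/+ and 18.4, 21.0 and 27.5 RPKM in Jag1Ndr/Ndr livers, with overlap and a log2 fold change of 0.09 (95% interval -0.39 to 0.56). Slc6a4, the serotonin carrier that platelets use, measured 0.626 ± 0.258 and 1.12 ± 0.430 RPKM (log2 fold change 0.88 ± 0.40, edgeR adjusted p = 0.240). Beside it, the 6 megakaryocyte and platelet markers summed to 20.6 to 64.1 RPKM in Jag1+/+ and 56.0 to 112 RPKM in Jag1Ndr/Ndr libraries, with 0 of 6 past the threshold, and their part in the value was not tested. Slc6a19, a neutral amino acid carrier of gut and kidney, stayed at 0.547 RPKM or lower in each library.

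**Figure D3:**
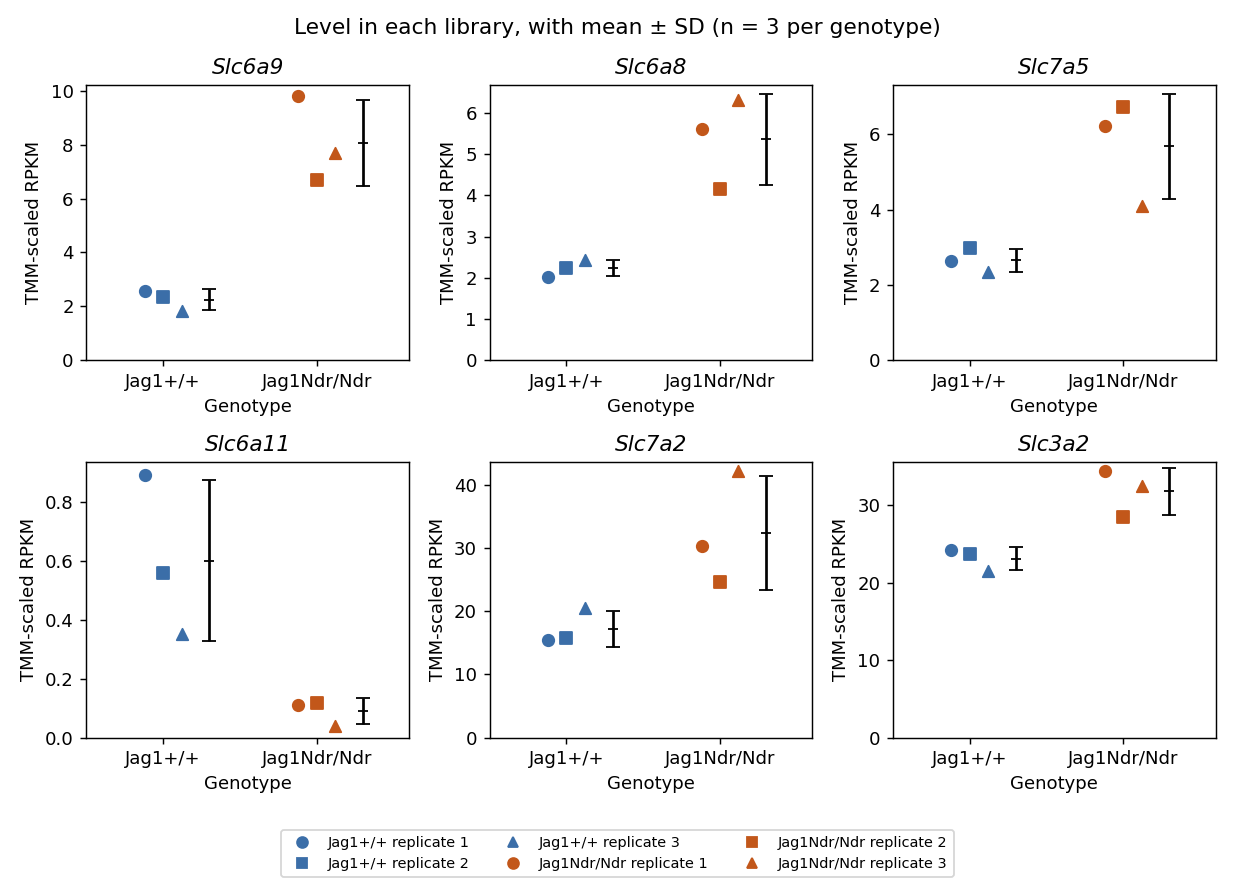
TMM-scaled RPKM (vertical axes from 0) of 6 members in each library by genotype, with mean ± SD of 3 libraries beside the points. In all 6 genes the genotypes do not overlap; Slc6a9, Slc6a8, Slc7a5 and Slc6a11 passed the test, and Slc7a2 and Slc3a2 had adjusted p of 0.0533 and 0.0952.

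Among the heteromeric carriers, Slc7a5 (LAT1; chromosome 8, positions 121881146 to 121907686) exchanges large neutral amino acids such as leucine and needs the heavy chain Slc3a2 to reach the cell surface. Its level was 2.62, 2.98 and 2.35 RPKM in Jag1+/+ and 6.22, 6.73 and 4.10 RPKM in Jag1Ndr/Ndr livers. The mutant libraries all lay above the controls, with replicate 3 nearest to them. The log2 fold change was 1.10 ± 0.22 (edgeR adjusted p = 0.0231). Leaving out any 1 of Jag1+/+ replicates 1, 2 and 3 ended this call (adjusted p = 0.0894, 0.0780 and 0.112), as did leaving out replicate 2 of Jag1Ndr/Ndr (0.0501). A sex term (0.0528) and limma on the deposited RPKM with pseudocounts of 1 and 0.1 (0.170 and 0.137) ended it too. Cycling cell markers, of which 0 of 6 passed, summed to 64.9 to 87.5 RPKM in Jag1+/+ and 77.4 to 115 RPKM in Jag1Ndr/Ndr libraries, and their part in the Slc7a5 value was not tested.

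The heavy chain Slc3a2 (4F2hc, CD98) measured 24.2, 23.7 and 21.5 RPKM in Jag1+/+ and 34.5, 28.5 and 32.5 RPKM in Jag1Ndr/Ndr livers. The genotypes did not overlap, but the log2 fold change of 0.46 ± 0.14 did not pass (edgeR adjusted p = 0.0952), and passed by DESeq2 (0.0436). The level of Slc7a5 over that of Slc3a2 was 0.108, 0.126 and 0.109 in Jag1+/+ and 0.180, 0.236 and 0.126 in Jag1Ndr/Ndr livers, without overlap (exact two-sided permutation p = 0.10, again the smallest possible). The heavy chain transcript was in excess of this light chain in every library.

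The remaining light chains did not pass. Slc7a7 (y+LAT1), which exports cationic amino acids in exchange for neutral ones, measured 8.26, 6.48 and 7.90 RPKM in Jag1+/+ and 13.7, 10.5 and 9.10 RPKM in Jag1Ndr/Ndr livers. The genotypes did not overlap (log2 fold change 0.55 ± 0.20, edgeR adjusted p = 0.138). Exons of Slc7a7 overlap those of Oxa1l on the other strand over 232 of 3315 bases. Oxa1l stood at -0.13 ± 0.20 on the log2 scale (edgeR, adjusted p = 0.754). Macrophages also express Slc7a7. The 7 Kupffer cell and macrophage markers summed to 288 to 524 RPKM in Jag1+/+ and 641 to 1126 RPKM in Jag1Ndr/Ndr libraries. Of these markers 1, Cd68, passed, and their median log2 fold change was 0.37. Their part in the Slc7a7 value was not tested. In RNA from whole tissue, a change in the number of cells of a type and a change in RNA per cell cannot be told apart.

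Slc7a8 (LAT2), a light chain for small and large neutral amino acids, measured 5.45, 6.44 and 3.95 RPKM in Jag1+/+ and 6.03, 10.9 and 6.49 RPKM in Jag1Ndr/Ndr livers. Replicate 2 stood out among the mutants, and the genotypes overlapped (log2 fold change 0.58 ± 0.27, edgeR adjusted p = 0.260). Slc7a6 (y+LAT2) measured 0.531 ± 0.0805 and 0.787 ± 0.255 RPKM (log2 fold change 0.61 ± 0.31, edgeR adjusted p = 0.293). The second heavy chain, Slc3a1 (rBAT), carries cystine and cationic amino acids with a light chain in kidney. It measured 3.82, 6.30 and 7.42 RPKM in Jag1+/+ and 5.09, 1.17 and 3.68 RPKM in Jag1Ndr/Ndr livers. Jag1Ndr/Ndr replicate 2 was lowest there, and the log2 fold change of -0.88 (95% interval -2.01 to 0.25) did not pass. Its exons overlap those of Prepl on the other strand over 601 of 2271 bases, and Prepl stood at -0.56 ± 0.19 on the log2 scale (edgeR, adjusted p = 0.127). Slc7a9, a light chain partner of Slc3a1, had 9 reads over the 6 libraries.

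The cationic amino acid carriers Slc7a1 (CAT1) and Slc7a2 (CAT2) take up arginine and lysine, and Slc7a2 is the form known for liver. Slc7a2 measured 15.4, 15.8 and 20.6 RPKM in Jag1+/+ and 30.4, 24.6 and 42.3 RPKM in Jag1Ndr/Ndr livers. All mutant libraries exceeded the controls, and the log2 fold change of 0.91 ± 0.23 missed the threshold narrowly (edgeR adjusted p = 0.0533). It passed by DESeq2 (adjusted p = 0.00316), with library totals alone (0.0475), without a filter (0.0405) and without Jag1Ndr/Ndr replicate 2 (0.0243). Slc7a1 measured 0.606 ± 0.0917 RPKM in Jag1+/+ and 1.07 ± 0.556 RPKM in Jag1Ndr/Ndr livers, where replicate 2 stood at 1.71 RPKM (log2 fold change 0.84 ± 0.35, edgeR adjusted p = 0.205). Slc7a2 over Slc7a1 was 22.2 to 36.1 in Jag1+/+ and 14.4 to 60.9 in Jag1Ndr/Ndr libraries (exact permutation p = 0.80). Slc7a4, a relative without established transport of its own, had 1.85 ± 0.115 and 1.75 ± 0.514 RPKM. Slc7a6os measured 9.28, 10.4 and 9.92 RPKM in Jag1+/+ and 9.61, 8.73 and 9.19 RPKM in Jag1Ndr/Ndr livers, with overlap.

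The Slc38 family held the most abundant members, and 0 of its 10 tested genes passed by edgeR. Slc38a5 alone among these 10 had an unadjusted p under 0.05, and DESeq2 called it and no other of them. Slc38a3 (SNAT3), a sodium- and proton-coupled glutamine carrier of hepatocytes, measured 336, 381 and 427 RPKM in Jag1+/+ and 414, 212 and 348 RPKM in Jag1Ndr/Ndr livers. Jag1Ndr/Ndr replicate 2 was lowest, and the other 2 mutant libraries lay among the controls. The log2 fold change was -0.23 with a 95% interval of -0.83 to 0.37. Beside it, the 8 hepatocyte markers, of which Ttr alone passed and fell, summed to 131893 to 139713 RPKM in Jag1+/+ and 65408 to 122990 RPKM in Jag1Ndr/Ndr libraries, and their part in the value was not tested. Slc38a4 (SNAT4), an imprinted system A carrier of alanine and other neutral amino acids, measured 164, 182 and 219 RPKM in Jag1+/+ and 153, 134 and 237 RPKM in Jag1Ndr/Ndr livers. The mutant libraries spread to both sides of the controls (log2 fold change -0.11, 95% interval -0.68 to 0.47), and the sign turned with library totals alone (0.01).

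Slc38a2 (SNAT2), the system A carrier that cells raise when amino acids are short, measured 18.6, 18.4 and 21.0 RPKM in Jag1+/+ and 16.7, 17.7 and 26.4 RPKM in Jag1Ndr/Ndr livers. The genotypes overlapped (log2 fold change 0.07, 95% interval -0.39 to 0.53). Slc38a1 (SNAT1), of the same system, was alike in the controls (1.69 to 1.84 RPKM) and in Jag1Ndr/Ndr replicates 1 and 3 (1.75 and 1.71), and at 3.45 RPKM in replicate 2. Slc38a1, Slc38a2 and Slc38a4 lie in this order on chromosome 15, with 43954 and 295088 bases between neighbours.

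Slc38a5 (SNAT5), a system N glutamine carrier, was the low-level member of the family with the largest fitted change. Its level was 1.15, 0.608 and 0.413 RPKM in Jag1+/+ and 2.49, 2.70 and 1.03 RPKM in Jag1Ndr/Ndr livers. Jag1Ndr/Ndr replicate 3 lay below Jag1+/+ replicate 1, and the log2 fold change of 1.57 ± 0.48 did not pass by edgeR (adjusted p = 0.0910). It passed without Jag1Ndr/Ndr replicate 3 (0.0472) and by DESeq2 (0.0180).

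Erythroid cells, which still mature in the liver of young pups, express both Slc6a9 and Slc38a5. Of 7 erythroid markers found 4 could be tested, and 1 of these passed. This was the anion exchanger Slc4a1 of the red cell membrane, which rose by 2.10 ± 0.49 on the log2 scale (edgeR, adjusted p = 0.0393). Epb4.2, Klf1 and Alas2 did not pass, at 1.97 ± 0.50, 1.26 ± 0.38 and 0.45 ± 0.30. Hba-a1 was at 0 reads, from which its expression was not judged. The 4 summed to 51.5 to 74.3 RPKM in Jag1+/+ and 61.1 to 158 RPKM in Jag1Ndr/Ndr libraries. Relative to the Jag1+/+ mean, Slc4a1 stood at 5.34, 5.54 and 1.91 in Jag1Ndr/Ndr replicates 1, 2 and 3. In the same order Slc38a5 stood at 3.44, 3.74 and 1.42, and Slc6a9 at 4.36, 2.98 and 3.41. Among the markers that did not pass, Epb4.2 stood at 3.53, 6.14 and 1.75, Klf1 at 3.57, 2.37 and 1.26, and Alas2 at 1.95, 1.38 and 0.783. Jag1Ndr/Ndr replicate 3 was the lowest mutant library for Slc4a1 and Slc38a5, and the middle one for Slc6a9. In Jag1+/+ replicates 1, 2 and 3 the same measure was 1.54, 0.953 and 0.505 for Slc4a1, 1.59, 0.841 and 0.571 for Slc38a5, and 1.15, 1.05 and 0.807 for Slc6a9. The part of erythroid cells in the Slc6a9 and Slc38a5 values was not tested.

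**Figure D4:**
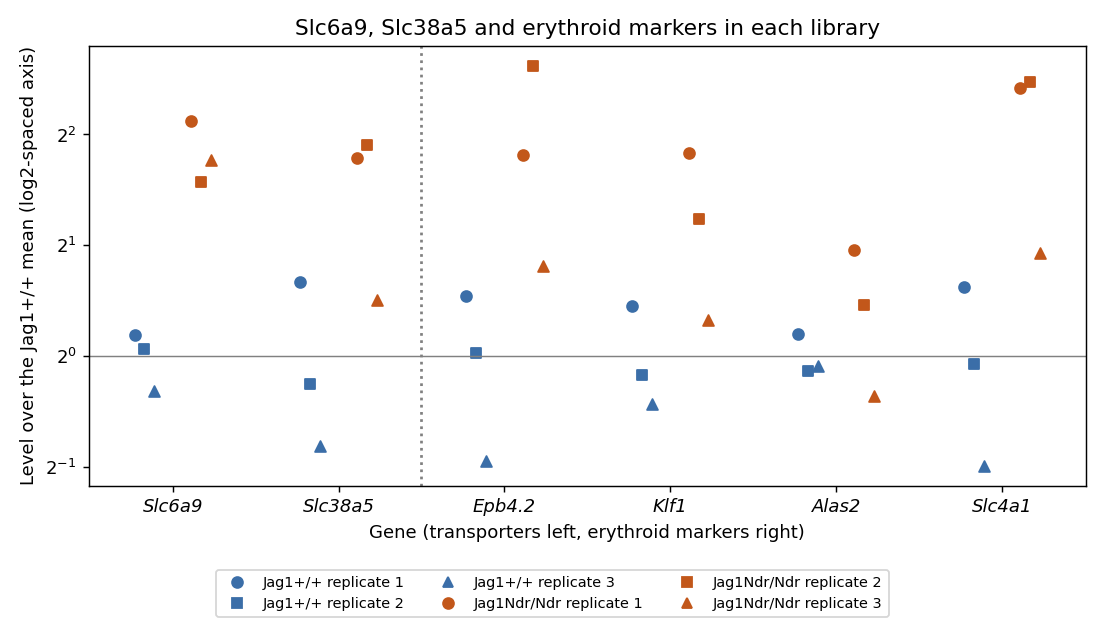
Level of Slc6a9, Slc38a5 and 4 erythroid markers in each library over the Jag1+/+ mean of that gene (vertical axis spaced in powers of 2). Slc38a5 and the markers are lower in Jag1Ndr/Ndr replicate 3 (orange triangles) than in replicates 1 and 2, whereas Slc6a9 is at 3.41 there.

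The remaining members of the family did not pass. Slc38a9, a lysosomal arginine sensor that signals to mTORC1, measured 1.02 ± 0.101 RPKM in Jag1+/+ and 1.03 ± 0.115 RPKM in Jag1Ndr/Ndr livers, with a 95% interval of the log2 fold change of -0.42 to 0.43. Slc38a7, which releases glutamine from lysosomes, measured 9.66, 9.83 and 10.1 RPKM in Jag1+/+ and 8.96, 7.98 and 7.61 RPKM in Jag1Ndr/Ndr livers. The genotypes did not overlap, but the log2 fold change of -0.27 ± 0.14 did not pass (edgeR adjusted p = 0.291). Slc38a10 measured 18.2, 20.9 and 18.7 against 28.9, 23.8 and 21.2 RPKM, also without overlap and without passing (log2 fold change 0.35 ± 0.17, edgeR adjusted p = 0.254). Slc38a6 had 2.85 ± 0.314 and 3.17 ± 0.985 RPKM, and Slc38a11 had 0.438 ± 0.0225 and 0.322 ± 0.198 RPKM.

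The Slc1 family had 3 tested members, of which 0 passed by edgeR and 0 by DESeq2, with 0 at an unadjusted p under 0.05. Slc1a4 (ASCT1), an exchanger of alanine, serine and cysteine, measured 23.5, 23.6 and 29.2 RPKM in Jag1+/+ and 20.2, 24.3 and 18.7 RPKM in Jag1Ndr/Ndr livers, with overlap (log2 fold change -0.27, 95% interval -0.66 to 0.11). Slc1a5 (ASCT2), which exchanges glutamine, varied widely within genotypes. It measured 5.95, 1.45 and 3.87 RPKM in Jag1+/+ and 4.49, 6.18 and 2.98 RPKM in Jag1Ndr/Ndr livers (log2 fold change 0.30, 95% interval -0.77 to 1.37). Jag1+/+ replicates 1 and 2 bounded its wild-type range, which spanned most of the mutant range. Slc1a3, a glutamate carrier, stayed at 0.143 RPKM or lower in each library.

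Of the 10 members with too few reads to be tested, the 9 given here had from 11 to 46 in all and stayed at 0.118 RPKM or lower in each library. These were the glutamate carriers Slc1a1, Slc1a6 and Slc1a7, then Slc6a3, Slc6a20a and Slc6a20b, and Slc7a3, Slc7a10 and Slc7a15. Slc6a20a and Slc6a20b are close copies that can share reads, and their counts are uncertain. Exons of Slc6a20b also overlap those of Sacm1l (10359 reads) on the other strand over 1800 of 8538 bases. Those of Slc7a10 overlap Lrp3 (4779 reads) over 377 of 2111 bases. Those of Slc1a1 overlap 4430402I18Rik (296 reads) over 2631 of 8257 bases. The part of these genes in the counts was not tested. Below 10 reads were Slc7a9 with 9, Slc6a2 with 7, Slc6a17 with 5, Slc6a14 with 3, Slc7a13 and Slc7a14 with 2 each, Slc38a8 and Slc6a18 with 1 each, and Slc6a5, Slc6a7, Slc6a15, Slc6a19os and Slc7a12 with 0.

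The order of levels put Slc38a3 first in wild-type livers (381 ± 45.1 RPKM), then Slc38a4 (188 ± 27.9), Slc6a13 (73.8 ± 16.5) and Slc6a12 (40.4 ± 7.56), each apart from the next in all 3 libraries. From Slc1a4 (25.5 ± 3.27) through Slc3a2, Slc6a6, Slc38a2 and Slc38a10 to Slc7a2 (17.2 ± 2.87), neighbours in the order overlapped. In mutant livers Slc38a3 (325 ± 103 RPKM) and Slc38a4 (175 ± 55.0) overlapped. Slc6a13 (102 ± 16.2) stood apart from both its neighbours, and Slc7a2 (32.4 ± 8.99) came next, ranked 4 in place of 10. From there to Slc38a2, ranked 10, each member overlapped with the next. Slc38a3 and Slc38a4 together made up 64.6% to 65.9% of the summed RPKM of the 41 members in the Jag1+/+ libraries. In Jag1Ndr/Ndr replicates 1, 2 and 3 this share was 59.7%, 50.7% and 62.2%. The Slc7 members, counted with Slc7a6os, which encodes no transporter, held 4.85% to 5.69% of the sum in Jag1+/+ libraries. In Jag1Ndr/Ndr libraries they held 7.32% to 9.61%, a range without overlap. Slc7a2, which did not pass, had the highest level of them in both genotypes (17.2 ± 2.87 and 32.4 ± 8.99 RPKM).

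**Figure D5:**
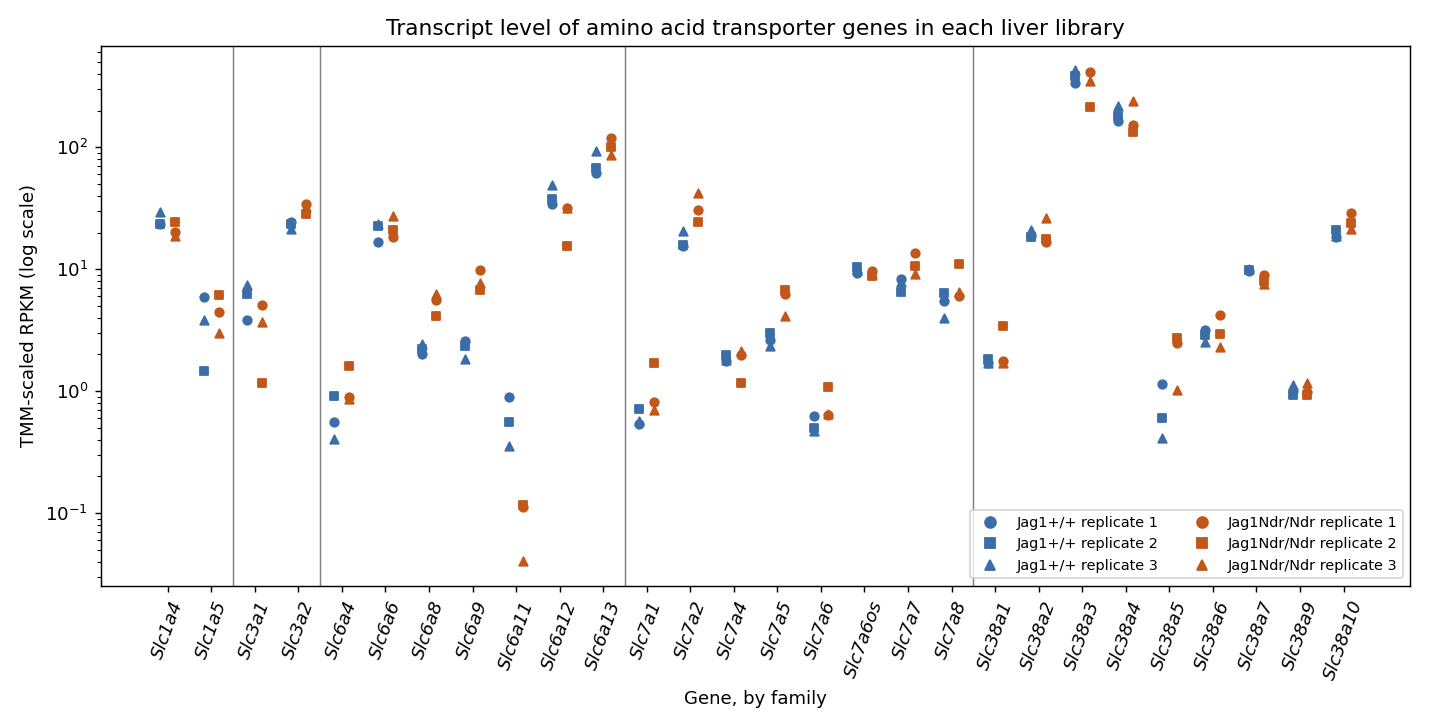
TMM-scaled RPKM (log axis) of the 28 members with a mean deposited RPKM of at least 0.5 in either genotype or past the threshold, in each library and grouped by family between the vertical lines. Slc38a3 and Slc38a4 lie highest in both genotypes, Slc6a11 lies lowest in Jag1Ndr/Ndr, and Jag1Ndr/Ndr replicate 2 (orange squares) stands out for Slc3a1, Slc6a12, Slc7a1 and Slc38a1.

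Other genes that move or sense amino acids were counted from lists, beside the 4.73% of all genes tested that were higher and the 2.90% that were lower. Of 14 tested carriers of amino acids or peptides outside the 5 families 1 rose and 0 fell, with a median log2 fold change of -0.02. This was Slc15a3, a lysosomal peptide and histidine carrier of phagocytes, at 7.50 ± 0.854 and 16.6 ± 3.19 RPKM (log2 fold change 1.14 ± 0.19, edgeR adjusted p = 0.0116). The macrophage marker sums given above were also higher, with 1 of 7 markers past the threshold and a median log2 fold change of 0.37. Of 7 neutrophil markers 4 rose and 0 fell, with a median log2 fold change of 1.46. These 7 summed to 850.2 to 1079 RPKM in Jag1+/+ and 1682 to 3299 RPKM in Jag1Ndr/Ndr libraries, and the part of either cell type was not tested. Of 9 tested mitochondrial amino acid carriers 1 rose, Sfxn3, a serine carrier relative, at 1.68 ± 0.322 and 3.17 ± 0.401 RPKM (edgeR adjusted p = 0.0455), and the list's median was -0.01.

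Of 25 genes of amino acid sensing upstream of mTORC1 1 rose, the Rag GTPase gene Rragd, from 0.567 ± 0.0342 to 1.84 ± 0.842 RPKM (log2 fold change 1.71 ± 0.35, edgeR adjusted p = 0.0253), with a list median of 0.00. Among 23 genes of the ATF4 response to amino acid shortage 4 rose and 0 fell, with a median of 0.32 beside 0.00 over all genes. Psat1, of serine synthesis, rose from 5.47 ± 0.772 to 18.4 ± 6.85 RPKM (log2 fold change 1.75 ± 0.29, edgeR adjusted p = 0.0120). Gpt2, an alanine aminotransferase, rose 2.18-fold, the pseudokinase gene Trib3 2.99-fold and Mthfd2, of mitochondrial folate metabolism, 2.26-fold (edgeR adjusted p = 0.0121, 0.0327 and 0.0467). Of 12 enzymes of glutamine, glutamate and aspartate handling 1 fell, glutamine synthetase Glul of pericentral hepatocytes, from 134 ± 29.0 to 58.8 ± 13.2 RPKM (log2 fold change -1.19 ± 0.24, edgeR adjusted p = 0.0230), and the median was -0.36. Over these 5 lists 7 of 83 tested genes were higher and 1 was lower, that is 9.64% beside 7.63% of all genes. Without Jag1+/+ replicates 1, 2 and 3 those higher numbered 1, 0 and 1, and those lower 0, 0 and 1, and without Jag1Ndr/Ndr replicate 2 those lower numbered 4.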

How the data were processed

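Polyadenylated liver RNA from postnatal day 10 was sequenced in 6 libraries with a kit that does not mark strand, per the labels' protocols. The deposited table holds read counts per gene and RPKM by the authors, for mm10 with STAR per the submitters' processing notes. The deposited RPKM are multiplied by the normalization factors of the file headers: once divided by these, 98.2% of values of 10023 genes followed CPM (reads scaled to library size) to within 5%. Gene lengths came from that relation, and RPKM were recomputed with TMM factors. Spike-in and eGFP entries (93, with 5 reads) were left out.

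Counts were tested with edgeR 4.0.16 (R 4.3.3): TMM, a filter of 0.401 CPM in at least 3 libraries, quasi-likelihood test, Benjamini-Hochberg adjustment over 13819 genes, threshold 0.05. SE is the log2 fold change over the square root of F. On simulated counts with the depths of these 6 libraries and 13819 genes, this called 29 of 100 genes changed 2-fold, 89 of 100 changed 4-fold and 13 of 13619 unchanged.

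Members with a mean deposited RPKM of at least 5 in a genotype are given in every library, those of at least 0.5 by group, the others by range, and members past the threshold always in full. Members and lists were chosen with earlier results of these data known. Alternatives were other scalings and filters, DESeq2 1.42.0, limma 3.58.1 on log2(deposited RPKM + 1 or 0.1), a replicate block, sex as a covariate and leaving out each library. An untested member and a cell type marker are not reported here.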

Additional observations from a re-analysis of the deposited data

How the results depend on the processing

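Slc6a9 passed in all 15 alternatives. Against 3 members higher and 1 lower, DESeq2 gave 6 higher. Limma on the deposited RPKM gave 1 higher and 0 lower with a pseudocount of 1, and 1 higher with 0.1. Those RPKM are multiplied by the header factors. Limma on them moved the median of all genes by 0.21 (pseudocount 1) and 0.22 (0.1) on the log2 scale. Leaving out each library gave 1 to 4 higher and 0 to 1 lower. Over all genes, against 653 higher and 401 lower, DESeq2 gave 1137 and 753, limma 388 and 101 (pseudocount 1) or 427 and 117 (0.1), sex as a covariate 366 and 230, and library totals alone 210 lower. Leaving out each library gave 155 to 679 higher and 127 to 532 lower. Over the 5 related lists, against 7 higher and 1 lower, DESeq2 gave 11 and 4, limma 3 and 0 (pseudocount 1) or 4 and 0 (0.1), sex as a covariate 4 higher, and library totals 0 lower. Leaving out each library gave 0 to 6 higher and 0 to 4 lower. The causes were not tested, but leaving out a library leaves fewer samples.

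The main test did not pair libraries by replicate number. Same-numbered libraries deviated together from their genotype means with correlations of 0.0856, 0.170 and 0.195, and differently numbered ones with -0.169 to -0.0188. Every library correlated best with its own number, at most a hint of pairing from the data and not the design. Deviations within a genotype cancel out, so positive correlations for some pairs go with negative ones for others. How often such a pattern arises without pairing was not tested. What the numbers stand for was not tested. With the replicate block 5 members were higher and 1 lower, 1430 genes were called in all, and 3 genes of the related lists were lower; Slc7a2 and Slc38a5 passed (adjusted p = 0.0222 and 0.0277).

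Signs turned only for members that did not pass. With library totals the log2 fold change was 0.049 for Slc1a3, 0.012 for Slc38a4, 0.0014 for Slc7a4 and 0.0094 for Slc7a6os. With limma and a pseudocount of 1 it was 0.0091, 0.10, 0.085 and 0.13 for the same genes, and with 0.1 it was 0.054, 0.10, 0.11 and 0.14. Both limma settings carry the shift of all genes given above. With sex as a covariate Slc38a9 was at -0.00066. Leaving out each library gave -0.037 to 0.10 for Slc1a3, -0.10 to 0.77 for Slc1a5, -0.010 to 0.59 for Slc38a1, -0.17 to 0.18 for Slc38a2, -0.45 to 0.0045 for Slc38a3, -0.39 to 0.055 for Slc38a4 and -0.11 to 0.33 for Slc38a6. It gave -0.086 to 0.082 for Slc38a9, -0.75 to 0.019 for Slc6a19, -0.091 to 0.20 for Slc6a6 and -0.27 to 0.15 for Slc7a4. Slc1a3 and Slc38a11 gave no value where they failed a filter, and 10 members were too shallow to test.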
